A study of Canis lupus familiaris with 24 samples.

Results

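Neutrophils, monocytes and macrophages are the phagocytes of the lung, and 38 genes that mark them were followed through lung tissue of 3 mongrel dogs. They were sorted into 16 neutrophil genes, 12 genes shared by neutrophils, monocytes and macrophages, and 10 monocyte and macrophage genes. The class names are labels of this sorting, and which cells of the lung carried each RNA was not tested. The members were all probe sets whose gene symbol in the platform annotation was exactly 1 of these names. Of the 38 genes, 34 had a probe set that entered the tests, out of 11226 genes tested on the array.

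In each dog the injured lung was the left one into which saline was washed 4 times at 20 ml/kg; such a lavage removes surfactant from the air spaces and is a mild form of lung injury. The control lung was the right one of the same dog, not lavaged, to which 5 cmH2O of positive end-expiratory pressure was added. Ventilation lasted 5 h at 25 breaths/min, separately for each lung, under pentobarbital anaesthesia with pancuronium. Lavage, side and added pressure differed together and cannot be told apart, so "injured" stands for all 3 of them. Each lung was sampled at its apex and its base, in the dependent part (the lower one under gravity) and the nondependent part. This gave 8 groups of 3 arrays, 1 per dog, and 24 arrays in all. The labels analysed here give neither age nor sex of the dogs.

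Neutrophils are made in the marrow, carry their proteases and antimicrobial proteins in granules, and leave the blood for the air spaces within hours of an injury. Much of the granule protein is transcribed in the marrow before release, so that mature neutrophils carry less of those transcripts than of the mRNA for cytokine and chemokine receptors and for the S100 proteins. Alveolar macrophages live in the air spaces and clear particles and surfactant through scavenger receptors, and a lavage can wash them out. In pieces of whole lung, fewer cells of a type and less RNA per cell cannot be told apart. The roles given for the genes are those known in human and mouse.

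Dog RNA was hybridised to human probe sets, and the signal of a probe set depends on how well its probes match the dog sequence. For that reason levels are compared here between samples of 1 gene only, never between genes. Values are log2 of the deposited signal, and differences are in log2 units, where 1.00 is a doubling. A gene is represented by its brightest tested probe set. The share of probe sets called Present, meaning detected above the mismatch probes, was between 60.9 and 82.5% per array, and it was lowest in dog 1, at 60.9 to 67.7%. Markers of other lung cells were detected unevenly, counted by the most often Present probe set of each gene. SFTPC and SFTPB of alveolar type 2 cells, CAV1 of alveolar type 1 cells, CDH5 of endothelium and CD3E of T cells were each Present on 24 of 24 arrays. Of the same lists, TEK of endothelium was Present on 15, LCK of T cells on 14, FOXJ1 and TPPP3 of airway ciliated cells on 9 and 5, and ALAS2 of red cells on 0. Of the 4 arrays of dog 3's injured lung, those from both apex sites and from the dependent base stood apart, with top signals of 22155 to 27749, where no other array went above 20465.

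Most of the tested genes were called Present on most arrays. They had been filtered for Present calls on at least 6 arrays, and no matching count over all probe sets is given. Of the 34 tested, 25 were Present on at least 20 of the 24 arrays and 9 on all of them. The genes Present on every array included MMP9 (gelatinase B), LCN2 (lipocalin 2, which binds bacterial siderophores), CXCR1 (a receptor for interleukin 8), TREM1 (a receptor that amplifies inflammatory signals) and AQP9 (a channel for water and glycerol). Among the macrophage genes they included CD163, which takes up haemoglobin bound to haptoglobin, C1QA of the complement C1q complex and VSIG4, a complement receptor. ITGAM, a chain of the integrin Mac-1, was the shared gene among them. At the other end, LTF (lactoferrin) and TLR8 (a receptor for single-stranded RNA) were Present on 4 injured and 4 control arrays each. Most of their values therefore come from arrays without a Present call. Not tested were ELANE, neutrophil elastase, Present on 1 injured and 3 control arrays, and CXCR2, the second interleukin 8 receptor, and LYZ, lysozyme, both Present on none. CD68 had no probe set of its own, since the probe set that carries its name is also assigned to SNORA67.

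The first question was whether these genes differed between injured and control lung over the 4 sites together. No member did at the threshold used, an adjusted p of 0.05 in limma over all 20034 tested probe sets. Of the 49 tested member probe sets 0 were called, against 0.21% of all probe sets. In the neutrophil class 8 of 14 genes were higher and 6 lower in the injured lung, with a median difference of 0.03; without dog 1, 5 of 14 were higher. In the shared class 6 of 12 were higher, with a median of 0.02, and in the macrophage class 4 of 8 were higher, with a median of 0.00. The median over all tested probe sets was 0.03, and 54.7% of them were higher in the injured lung. An unadjusted p under 0.05 was reached by 2 of 34 genes, MARCO and FCGR2A, or 5.88%, against 9.7% of all probe sets.

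**Figure D1:**
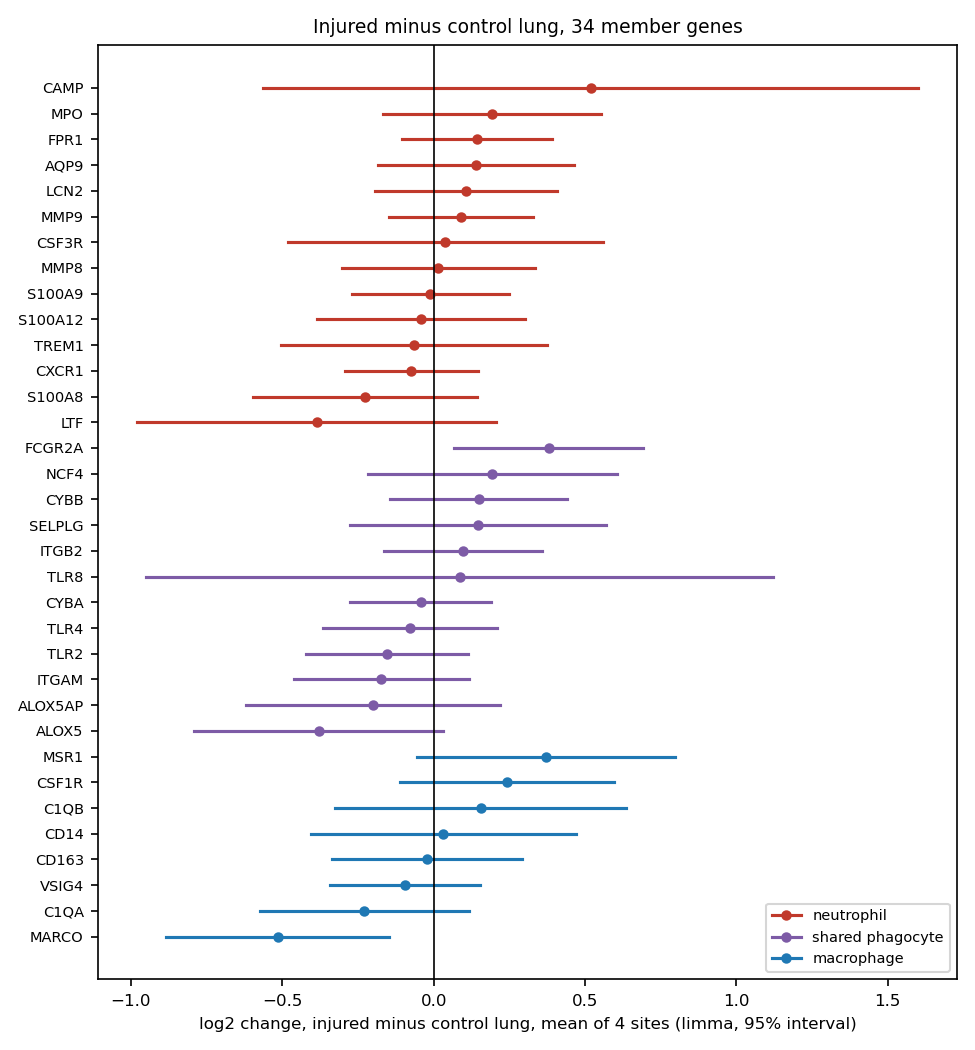
Log2 change of the 34 tested genes, injured minus control lung over the 4 sites together, with the 95% interval of the limma fit (24 arrays, 3 dogs), sorted within the neutrophil, shared and macrophage classes. The points scatter on both sides of 0 in every class, and the 95% intervals of FCGR2A and MARCO lie on 1 side of 0.

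The 95% intervals bound the difference in the signal of each gene's brightest probe set, and other probe sets of a gene could differ from it. With the 24 lung pieces as units, the interval lay within 1.5-fold in either direction for 22 of the 34 genes and within 2-fold for 32. With 1 mean per lung and dog, so that the 3 dogs were the units, it lay within 1.5-fold for 21 genes and within 2-fold for 32. In the neutrophil class it lay within 1.5-fold for 11 of 14 genes with pieces as units and 10 with dogs as units, and within 2-fold for 13 either way. S100A9, a subunit of calprotectin, differed by -0.01 ± 0.12 (SE) with an interval of -0.27 to 0.25. MMP9 differed by 0.09 ± 0.11, with an interval of -0.15 to 0.33. CXCR1, at -0.07 ± 0.11, had an interval of -0.29 to 0.15, and FPR1, the receptor for bacterial formyl peptides, at 0.14 ± 0.12, had one of -0.10 to 0.39. The exceptions with wide intervals were CAMP, the antimicrobial cathelicidin, at 0.52 ± 0.52, and TLR8, at 0.09 ± 0.50. The lungs of dogs 1, 2 and 3 differed by 1.81, -0.37 and 0.11 for CAMP, and the value was -0.13 without dog 1, whose control lung held a single array at -0.74. They differed by 1.33, 0.93 and -2.0 for TLR8, and the value was 1.13 without dog 3. On the 3 arrays of dog 3 that stood apart the TLR8 signal minus that of the dog's other 5 arrays was -2.92 on the log2 scale.

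Among the neutrophil granule genes, LTF and CAMP lay at the ends of the class. LTF had log2 signals of 4.69 to 7.56 in injured lung (median 6.43), against 5.43 to 7.77 in control lung (median 7.04). Its difference was -0.39 ± 0.29 (limma adjusted p = 0.727), and the ranges of the lungs overlapped. MPO, the myeloperoxidase of the primary granules, differed by 0.19 ± 0.17. LCN2 differed by 0.11 ± 0.15 and was higher in the injured piece of 9 of 12 pairs of the same dog and site. At least 9 of 12 was reached by 5 of the 34 genes and by 10.73% of all probe sets. MMP8, the neutrophil collagenase, differed by 0.02 ± 0.15 over the 4 sites. Another MPO probe set gave -0.01 and another FPR1 probe set -0.06, the opposite sign to the brighter ones.

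The S100 proteins and surface receptors of mature neutrophils did not stand out either. S100A8, the partner of S100A9 in calprotectin, averaged 5.82 ± 0.09 in injured lungs and 6.05 ± 0.30 in control lungs (SD, n = 3 dogs each), and its difference was -0.23 ± 0.18 (limma adjusted p = 0.744). S100A12, a related calgranulin, averaged 6.67 ± 0.35 in injured lungs and 6.71 ± 0.44 in control lungs. CSF3R, the receptor for granulocyte colony-stimulating factor, differed by 0.04 ± 0.25, with dogs 1 and 2 at 0.32 and 0.44 and dog 3 at -0.64. TREM1 split the dogs as well, at -0.35, -0.50 and 0.65 in dogs 1, 2 and 3, as did AQP9, at -0.04, 0.00 and 0.46. On the 3 arrays of dog 3 that stood apart, TREM1 was 0.96 and AQP9 0.74 above that dog's other arrays, and CSF3R differed from them by -0.62, where the median of all probe sets was 0.12. Without those 3 arrays the lung difference was -0.36 for TREM1, -0.04 for AQP9 and 0.29 for CSF3R. The lung difference had the same sign in all 3 dogs for 8 of the 34 genes, and for 29.7% of all probe sets.

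MARCO, a scavenger receptor of alveolar macrophages, had the smallest p-value of the members over the 4 sites. Its log2 signal was 4.82 to 7.79 in injured lung (median 6.91), against 5.93 to 8.18 in control lung (median 7.38). The injured piece was the lower one in 10 of 12 pairs, although the ranges of the lungs overlapped. The dogs' lung differences were -0.14, -0.74 and -0.66. The mean difference was -0.52 ± 0.18, or 0.70-fold (95% interval 0.54 to 0.90; limma adjusted p = 0.309). MARCO was Present on 7 injured and 10 control arrays. The difference was -0.38 without the 3 arrays that stood apart and ranged from -0.70 to -0.38 over 15 alternatives, with adjusted p of 0.193 to 0.819.

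FCGR2A, a low-affinity receptor for immunoglobulin G, went the other way. It had log2 signals of 6.63 to 7.56 in injured lung (median 6.92), against 5.55 to 7.09 in control lung (median 6.70). The injured piece was higher in 10 of 12 pairs, and the lowest control values were those of dogs 2 and 3 at the apex dependent site. The difference was 0.38 ± 0.15, or 1.30-fold (95% interval 1.05 to 1.62; limma adjusted p = 0.383), with dogs at 0.03, 0.55 and 0.56. FCGR2A was Present on 6 injured and 8 control arrays, and its symbol is not listed in the dog RefSeq gene table used here. At least 10 of 12 pairs higher was seen for 2 members, FCGR2A and CSF1R (the receptor for macrophage colony-stimulating factor), and for 3.27% of all probe sets. At most 2 of 12 higher was seen for MARCO alone among members, and for 3.08% of all.

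The other macrophage genes were on both sides of 0. MSR1, another scavenger receptor, differed by 0.37 ± 0.20, CSF1R by 0.24 ± 0.17 and C1QB by 0.16 ± 0.23. CD14, the lipopolysaccharide co-receptor of monocytes, differed by 0.03 ± 0.21 and CD163 by -0.02 ± 0.15. C1QA differed by -0.23 ± 0.17 and VSIG4 by -0.09 ± 0.12. Probe sets of 1 gene disagreed in places: of the other MSR1 probe sets 1 gave -0.21, and another CD163 probe set gave 0.66 ± 0.27.

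Among the shared genes, those of the NADPH oxidase, which makes superoxide in phagocytes, were CYBB at 0.15 ± 0.14, CYBA at -0.04 ± 0.11 and NCF4 at 0.19 ± 0.20. ITGAM differed by -0.17 ± 0.14 and ITGB2, the chain it pairs with, by 0.10 ± 0.12, while SELPLG, the ligand of P-selectin, differed by 0.15 ± 0.20. For leukotriene synthesis, ALOX5 (5-lipoxygenase) differed by -0.38 ± 0.20 and ALOX5AP, its activating protein, by -0.20 ± 0.20. The dogs' ALOX5 differences were -0.18, -0.05 and -0.90, and the value was -0.12 without dog 3 and -0.08 without its 3 arrays that stood apart. ALOX5AP was at -0.05 without dog 3 and at 0.05 without those 3 arrays. The other 3 ALOX5 probe sets gave 0.12, 0.06 and 0.10, so the sign of that gene depended on the probe set. The same held for ITGAM, SELPLG and NCF4, whose other probe sets gave 0.20, -0.05 and -0.03. A further CYBB probe set also had the opposite sign, with means of 5.55 in injured and 5.69 in control lung. TLR2, a receptor for bacterial lipoproteins, differed by -0.15 ± 0.13 and TLR4, the receptor for lipopolysaccharide, by -0.08 ± 0.14.

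Further genes of the same cells were not called either. Of 26 other neutrophil genes 20 were tested and 0 called, 14 were higher in injured lung and the median was 0.05. Those with the smallest p were ARG1 (arginase 1) at 0.37 ± 0.15, AZU1 (azurocidin) at 0.68 ± 0.31, PTAFR (the receptor for platelet-activating factor) at -0.17 ± 0.09 and CEBPE (a transcription factor of granule formation) at 0.20 ± 0.12. Of 29 other macrophage genes 26 were tested and 0 called, 16 were higher and the median was 0.03. There the smallest p-values belonged to AIF1 at 0.39 ± 0.16, FCN1 (ficolin 1 of monocytes) at -0.37 ± 0.18, ITGAL (an integrin chain of leukocytes) at 0.38 ± 0.19 and PPARG (a nuclear receptor of alveolar macrophages) at -0.35 ± 0.19. Markers of other cells of the lung were on both sides of 0, and none was called. Of the alveolar type 2 genes 1 of 5 was higher in injured lung, with a median of -0.14 and a lowest value of -0.59, and 2 of the 5 had an unadjusted p under 0.05. Of the alveolar type 1 genes 2 of 4 were higher, with a median of -0.08 and a lowest value of -1.02, and 2 of the 4 had an unadjusted p under 0.05, against 9.7% of all probe sets. In the other lists 0 of 4 endothelial genes (median -0.11), 0 of 4 platelet genes (median -0.16), 1 of 3 red cell genes (median -0.01) and 2 of 4 T cell genes (median -0.02) were higher. The remaining lists had positive medians. There 1 of 2 airway ciliated genes (median 0.15), 2 of 2 B and plasma cell genes (median 0.08) and 2 of 2 mast cell and eosinophil genes (median 0.23) were higher. Their part in the members' values was not tested.

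At single sites the fit was less precise, with a median SE of 0.36 over all probe sets. No member probe set was called at either apex site or in the dependent base, where 0.0% of all probe sets were called, nor at the base nondependent site, where 0.404% were. Injured and control arrays of the 3 dogs did not overlap for 0 of 34 genes at the apex dependent site, against 8.67% of all probe sets, and for 1 gene at the apex nondependent site, against 6.27%. They did not overlap for 2 genes at the base dependent site, against 8.32%, and for 2 at the base nondependent site, against 11.5%. These shares of the members, at most 5.88%, rest on 0 to 2 genes per site, with 1 probe set per gene set against all probe sets. They are not read as a difference from the array. The plot of 6 genes by site shows the values.

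**Figure D2:**
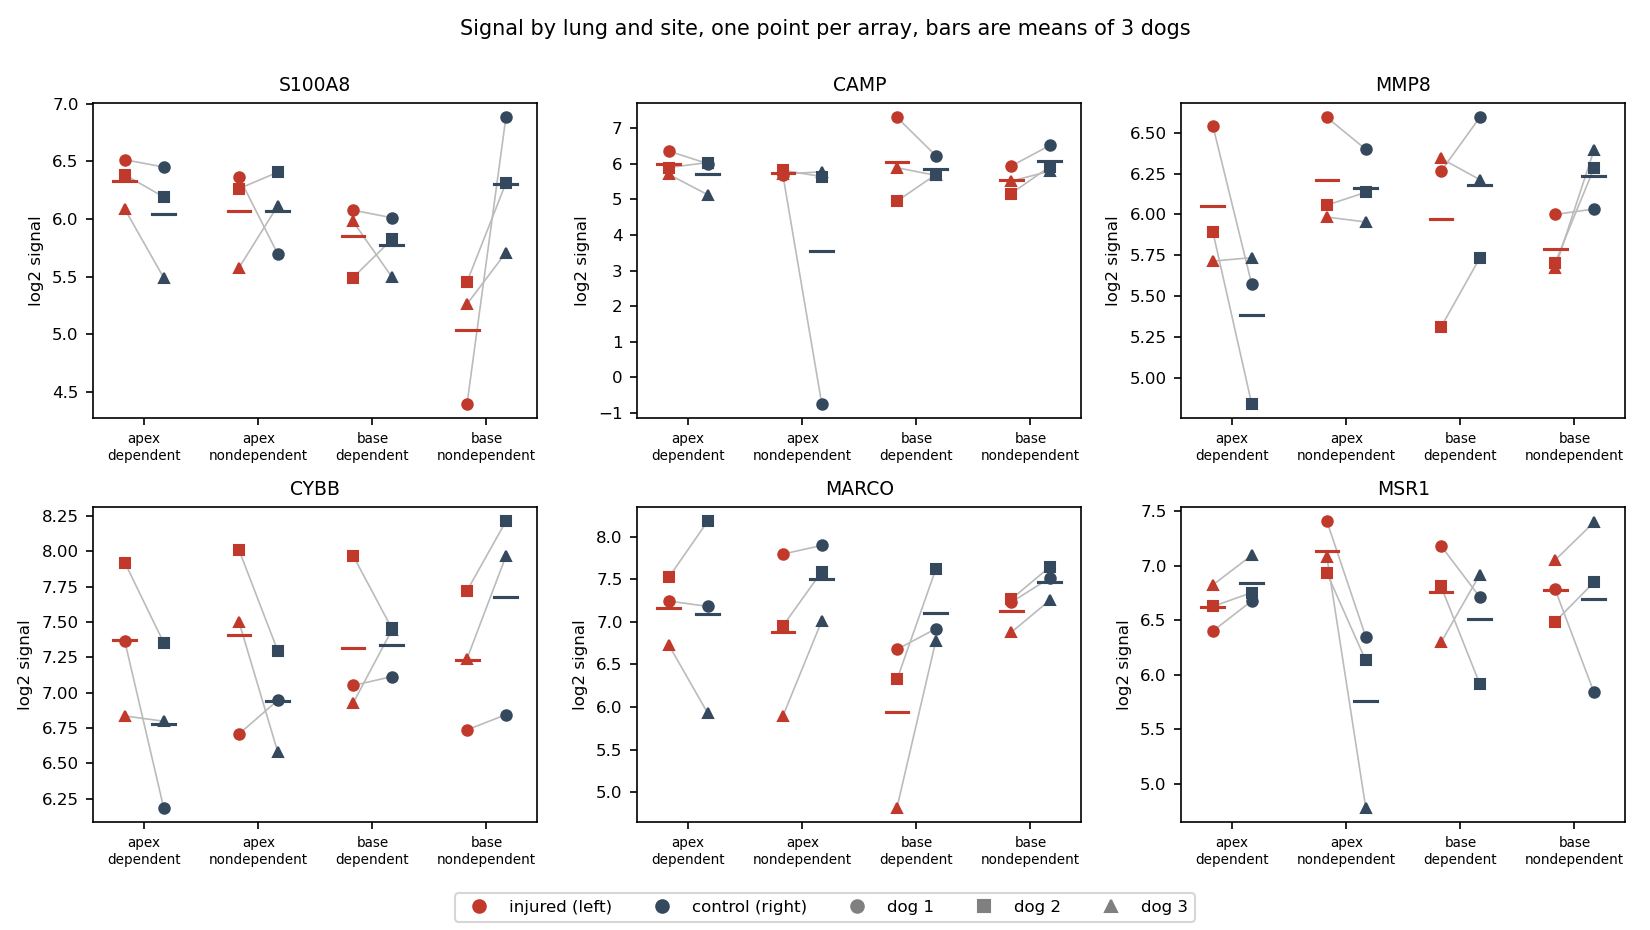
Log2 signal of S100A8, CAMP, MMP8, CYBB, MARCO and MSR1 at each site, with 1 point per array, injured lung left and control lung right, symbols for the dogs, grey lines joining the lungs of a dog, and bars for the mean of 3 dogs. S100A8 at the base nondependent site and MARCO at the base dependent site have all 3 injured points below the control points, MSR1 at the apex nondependent site has them above, and the single low CAMP point is a control array of dog 1.

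S100A8 at the base nondependent site had the smallest adjusted p of any member in any comparison. Its log2 signals were 4.40, 5.46 and 5.26 in the injured lung of dogs 1, 2 and 3, against 6.88, 6.31 and 5.71 in the control lung. All 3 injured values lay below all 3 control values, and dog 1 had both the lowest and the highest one. The difference was -1.26 ± 0.36, or 0.42-fold (95% interval 0.25 to 0.70; limma adjusted p = 0.1665). It was -0.65 without dog 1 and -1.67 without dog 3, and adjusted p ranged from 0.132 to 1.00 over 13 alternatives. S100A9 did not share this pattern: at the same site it had 9.27, 7.76 and 7.79 in injured lung, against 8.59, 7.46 and 7.43 in control lung. MMP8 averaged 5.79 ± 0.18 in injured lung and 6.24 ± 0.18 in control lung at that site (SD, n = 3 dogs each), without overlap, though the lungs of dog 1 differed by only -0.03. S100A8 was the 1 gene of 34 with an unadjusted p under 0.05 there, against 8.41% of all probe sets. In the other classes the smallest p belonged to NCF4, at 0.68 ± 0.39, TLR4, at -0.45 ± 0.28, VSIG4, at -0.40 ± 0.24, and C1QA, at -0.49 ± 0.33. Leaving out 1 dog gave 0.35 to 1.09 for NCF4, -0.74 to -0.23 for TLR4, -0.57 to -0.14 for VSIG4 and -0.88 to -0.22 for C1QA.

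At the base dependent site MARCO had log2 signals of 6.68, 6.32 and 4.82 in injured lung, against 6.92, 7.62 and 6.78 in control lung. The lungs did not overlap, and the lowest value came from an array of dog 3 that stood apart. The difference was -1.16 ± 0.35 (limma adjusted p = 0.606), and it was -0.77 without dog 3. Detection of MARCO there was 1 of 3 arrays in injured lung and 3 of 3 in control lung. C1QA had 8.19, 8.17 and 8.21 in injured lung, against 8.78, 8.34 and 8.77 in control lung at this site, again without overlap. The macrophage class did not share this direction, since 5 of its 8 genes were higher in injured lung here and 3 lower, with a median of 0.04. C1QB was higher in every dog, by 0.52, 1.21 and 0.43, with overlapping lungs. Its detection at this site was 3 of 3 in injured lung, against 0 of 3 in control lung. CYBA had 7.53, 7.18 and 6.99 in injured lung, against 8.26, 7.50 and 7.52 in control lung, and its difference was -0.53 ± 0.22 (limma adjusted p = 0.761) with overlapping lungs. CYBA and MARCO were the 2 genes with an unadjusted p under 0.05 at this site, or 5.88%, against 6.21% of all probe sets. In the neutrophil class S100A9, at -0.48 ± 0.25, and AQP9, at 0.50 ± 0.31, had the smallest p. AQP9 was at 0.16 without the 3 arrays of dog 3 that stood apart, and S100A9 was at -0.91 without dog 1 and -0.25 without dog 2.

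At the apex nondependent site 2 genes, CAMP and MSR1, had an unadjusted p under 0.05, or 5.88%, against 5.41% of all probe sets. CAMP had 5.68, 5.81 and 5.71 in injured lung, against -0.74, 5.64 and 5.77 in control lung. The difference of 2.18 ± 1.04 rests on the single control array of dog 1, since it was 0.06 without dog 1 and 0.60 with signals under 16 raised to 16. MSR1 had 7.41, 6.93 and 7.08 in injured lung, against 6.35, 6.13 and 4.78 in control lung. The lungs did not overlap, and the difference was 1.39 ± 0.41 (limma adjusted p = 0.791). The other 3 MSR1 probe sets gave 0.38, 0.27 and -0.12 at this site. The shared genes with the smallest p were CYBB, at 0.47 ± 0.28, and CYBA, at 0.27 ± 0.22. Without dog 3 they were at 0.24 and 0.00, and CYBB was at 0.82 without dog 1.

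At the apex dependent site 4 genes had an unadjusted p under 0.05, or 11.8% of the 34, against 6.94% of all probe sets. MMP8 had 6.54, 5.89 and 5.71 in injured lung, against 5.58, 4.84 and 5.74 in control lung, a difference of 0.67 ± 0.31 (limma adjusted p = 0.707). CYBB, the catalytic subunit of the oxidase, had 7.36, 7.92 and 6.84 in injured lung, against 6.19, 7.35 and 6.80 in control lung, a difference of 0.59 ± 0.28. For both genes dog 3 showed almost no difference between its lungs. FCGR2A differed by 0.68 ± 0.30 and TLR2 by -0.69 ± 0.26, TLR2 with 7.97, 6.99 and 7.19 in injured lung, against 7.90, 8.38 and 7.93 in control lung. Leaving out 1 dog gave 0.47 to 1.01 for MMP8, 0.30 to 0.87 for CYBB, 0.43 to 1.13 for FCGR2A and -1.06 to -0.33 for TLR2. A further CYBB probe set gave 0.47 and another -0.28. The macrophage genes with the smallest p there were CD163, at 0.20 ± 0.30, and MSR1, at -0.22 ± 0.41. Some of the other MSR1 probe sets had the opposite sign at this site.

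Whether the lung difference itself changed with position or level was tested as an interaction. For position, 0 of 49 member probe sets were called, against 0.0% of all probe sets, and 1 gene had an unadjusted p under 0.05, against 5.43% of all. That gene was S100A8, whose injured minus control difference was 0.81 ± 0.36 higher in the dependent than in the nondependent parts (limma adjusted p = 0.851). The next genes were CYBA at -0.42 ± 0.22 and NCF4 at -0.72 ± 0.39 of the shared class, and CSF1R at -0.63 ± 0.34 and MSR1 at -0.72 ± 0.41 of the macrophage class. Some of the other MSR1 probe sets had the opposite sign for this interaction. Without dog 3, CYBA was at -0.21 and MSR1 at -0.37, and NCF4 was at -0.33 without the 3 arrays that stood apart. For level, 0 of 49 were called, again against 0.0%, and 2 genes had an unadjusted p under 0.05, against 8.26% of all. The base value of the lung difference minus its apex value was -0.68 ± 0.31 for MMP8 and -0.76 ± 0.28 for CYBB (limma adjusted p = 0.575 and 0.479). The CYBB probe sets split here as well, with -0.67 and 0.75 from the other ones. In the macrophage class C1QA, at -0.48 ± 0.33, and MARCO, at -0.48 ± 0.35, had the smallest p, with MARCO at -0.22 without dog 3.

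Within the injured lung, dependent pieces were set against nondependent ones. Here 0 of 49 member probe sets were called, against 0.0% of all probe sets. All 14 tested neutrophil genes had a positive difference, with a median of 0.23 and a range of 0.01 (MMP8) to 0.70 (LTF), and over 14 alternatives 11 to 14 of them did. Over all tested probe sets the median was 0.04 and 55.6% were higher in the dependent part. S100A8 was higher by 0.53 ± 0.25 and CXCR1 by 0.32 ± 0.15 (limma adjusted p = 0.918 for both), while the intervals of the other 12 included 0. These 2 were the members with an unadjusted p under 0.05, or 5.88% of the 34, against 5.27% of all probe sets. Of the 14 genes, 12, 11 and 13 were higher in the dependent part in dogs 1, 2 and 3, where 50.6, 56.2 and 55.2% of all probe sets were. By level, 11, 9 and 11 of 14 were higher at the apex in dogs 1, 2 and 3 and 10, 6 and 12 at the base. At the base of dog 2 the median was -0.07, and 57.3% of all probe sets were higher there in the dependent part. Among the 20 other neutrophil genes 16 were higher in the dependent part, with a median of 0.15. Other cell types had positive medians there too: 4 of 4 T cell genes were higher in the dependent part (median 0.35), 2 of 4 endothelial genes (median 0.32), 2 of 2 airway ciliated genes (median 0.30) and 2 of 2 B and plasma cell genes (median 0.23). Of the alveolar type 2 genes 3 of 5 were higher (median 0.04), of the alveolar type 1 genes 3 of 4 (median 0.06) and of the platelet genes 2 of 4 (median 0.08). Medians were negative for the red cell genes, with 1 of 3 higher (median -0.25), and the mast cell and eosinophil genes, with 0 of 2 (median -0.12). Their part in the neutrophil result was not tested. The shared and macrophage classes had 6 of 12 and 5 of 8 genes higher, with medians of 0.01 and 0.10. Their smallest p-values belonged to TLR4, at 0.38 ± 0.20, and CYBA, at -0.24 ± 0.16, and to MARCO, at -0.45 ± 0.25, and VSIG4, at 0.21 ± 0.17. VSIG4 was at 0.02 without dog 2 and 0.45 without dog 1, and CYBA was at -0.12 without dog 3.

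**Figure D3:**
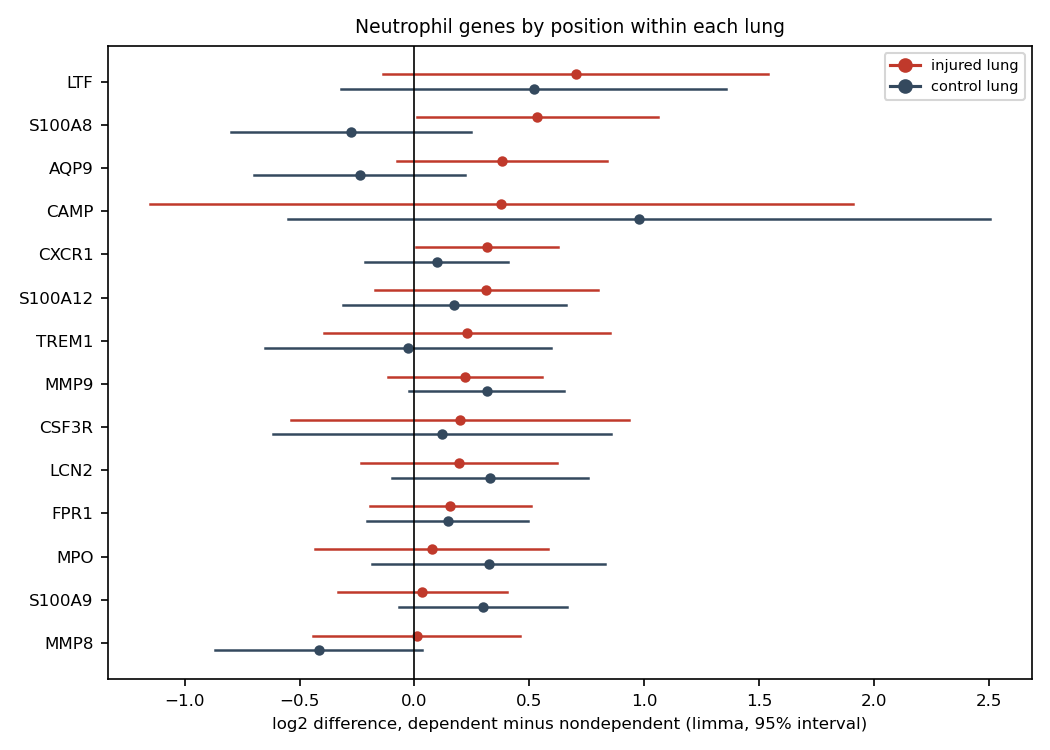
Log2 difference between dependent and nondependent pieces for the 14 tested neutrophil genes, in the injured lung (red, upper line of each pair) and the control lung (dark, lower line), with the 95% interval of the limma fit (12 arrays per lung, 3 dogs). All 14 points of the injured lung lie to the right of 0, against 10 of 14 in the control lung, and most intervals cross 0.

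In the control lung 0 of 49 member probe sets were called between the dependent and nondependent parts, against 0.0% of all probe sets. There 10 of the 14 neutrophil genes were higher in the dependent part, with a median of 0.16 against -0.03 over all probe sets. By dog, the count was 9, 7 and 7 of 14. S100A8 stood at 0.53 in injured and -0.28 in control lung, and AQP9 at 0.38 in injured and -0.24 in control lung, but the interaction with position passed the threshold for neither. The gene with the smallest p in the control lung was FCGR2A, at -0.47 ± 0.21 (limma adjusted p = 0.990), the 1 member with an unadjusted p under 0.05, where 4.79% of all probe sets had one. Next were MMP9, at 0.32 ± 0.16, MMP8, at -0.42 ± 0.22, CSF1R, at 0.40 ± 0.24, and MSR1, at 0.45 ± 0.29. Without dog 2, FCGR2A was at -0.23, MMP9 at 0.14 and MMP8 at -0.17, and without dog 3 CSF1R was at 0.17 and MSR1 at 0.22. Some of the other MSR1 probe sets had the opposite sign in the control lung. As neutrophil genes share the same cells and the same arrays, the 14 genes are not 14 independent observations.

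Base was set against apex within each lung. In the injured lung 0 of 49 member probe sets were called, against 0.0349% of all probe sets. Of the neutrophil genes 3 of 14 were higher at the base, with a median of -0.08, close to the median of -0.07 over all probe sets, of which 41.0% were higher. The count was 7 of 14 without dog 2 and 1 of 14 with array weights. S100A8 differed between base and apex by -0.75 ± 0.25 (limma adjusted p = 0.332), the 1 gene of 34 with an unadjusted p under 0.05, against 9.03% of all probe sets. Its log2 signals were 6.08, 5.49 and 5.98 in the dependent base and 4.40, 5.46 and 5.26 in the nondependent base, against 6.51, 6.38 and 6.09 in the dependent apex and 6.36, 6.26 and 5.58 in the nondependent apex. Of the macrophage genes VSIG4 was at -0.33 ± 0.17 and MARCO at -0.49 ± 0.25, and of the shared genes NCF4 was at 0.30 ± 0.28 and TLR8 at 0.81 ± 0.70, which reversed to -0.06 without dog 3. In the control lung 0 of 49 were called, against 0.0%, and 7 of 14 neutrophil genes were higher at the base. CYBB was higher at the base of the control lung by 0.64 ± 0.20 (limma adjusted p = 0.945), with 0.39 and -0.62 from its other probe sets; it was the 1 gene with an unadjusted p under 0.05 there, against 5.16% of all probe sets. C1QA was at 0.49 ± 0.23 and C1QB at -0.49 ± 0.33, MMP8 at 0.43 ± 0.22 and CAMP at 1.33 ± 0.74, or 0.13 without dog 1.

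The heat map of all 34 genes shows how the arrays compared within each dog. Over the 24 arrays, the median of the 14 neutrophil genes relative to the mean of their dog was highest at the injured apex dependent site of dogs 1 and 2, at 0.29 and 0.27, where 11 of 14 genes were above their dog's mean. It was lowest at the injured base dependent site of dog 2, at -0.31, with 4 of 14 above. The 3 arrays of dog 3 that stood apart had neutrophil medians of 0.22 and 0.25 in the dependent apex and base and -0.14 in the nondependent apex. Against the other 5 arrays of that dog, 10 of 14 neutrophil genes were higher on those 3, with a median of 0.17, where the median of all probe sets was 0.12.

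**Figure D4:**
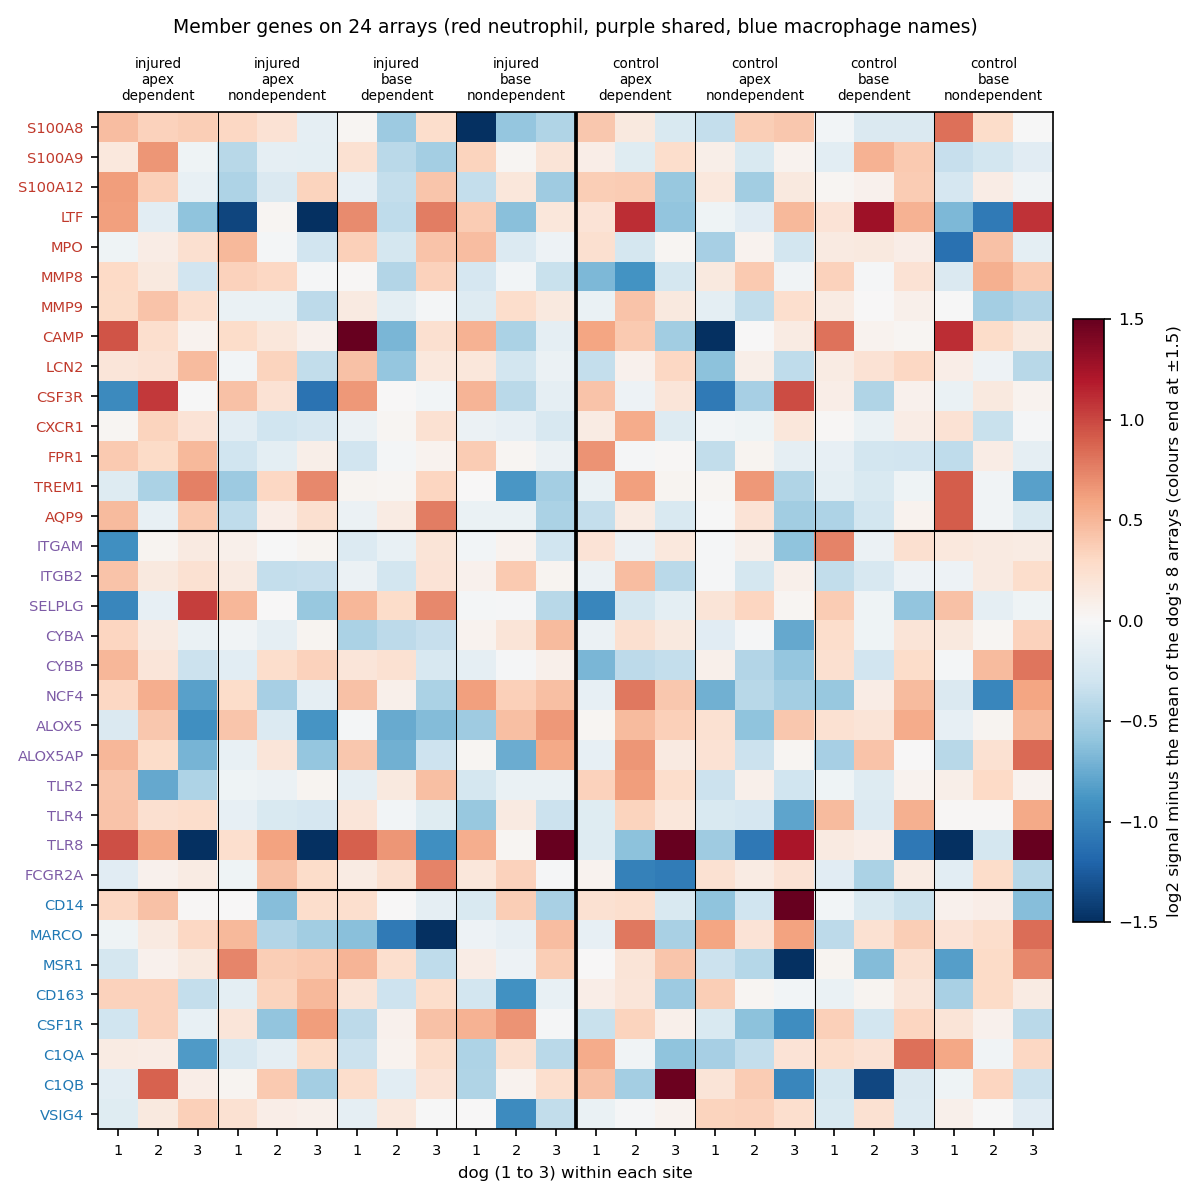
Log2 signal of each gene on each array minus the mean of that dog's 8 arrays, with the 12 injured arrays left and the 12 control arrays right, 4 sites per lung and dogs 1 to 3 within each site; the colour scale ends at 1.5 in either direction. No block of colour separates the lungs. Among the strongest cells, that of CAMP belongs to a single control array of dog 1. Those of TLR8 in dog 3 belong to several arrays of both lungs, from -2.36 to 2.15.

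The dogs held more of the variation than the lungs did, with 2 degrees of freedom for the dogs and 1 for the lung. Of the sum of squares of log2 signal over the 24 arrays, the dog held a median of 24.6% for neutrophil genes, 30.7% for shared genes and 15.3% for macrophage genes, against 18.6% over all probe sets. The lung held 1.9, 2.5 and 4.38% for the same classes, against 2.34% over all probe sets. The largest share of the dog was that of S100A9, at 80.2%, whose means over 8 arrays were 8.93, 7.73 and 7.60 in dogs 1, 2 and 3. MMP9 followed at 61.2%, with 7.83, 7.05 and 7.51, and AQP9 at 57.4%, with 7.39, 7.78 and 8.40. These genes did not order the dogs alike, since dog 1 was highest for S100A9 and MMP9 and lowest for AQP9. Dog 1 had the highest mean of the 3 dogs for 18 of 34 members, or 52.9%, and for 35.7% of all probe sets. The lung held its largest shares for FCGR2A at 20.2%, MARCO at 12.7% and MSR1 at 11.1%.

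**Figure D5:**
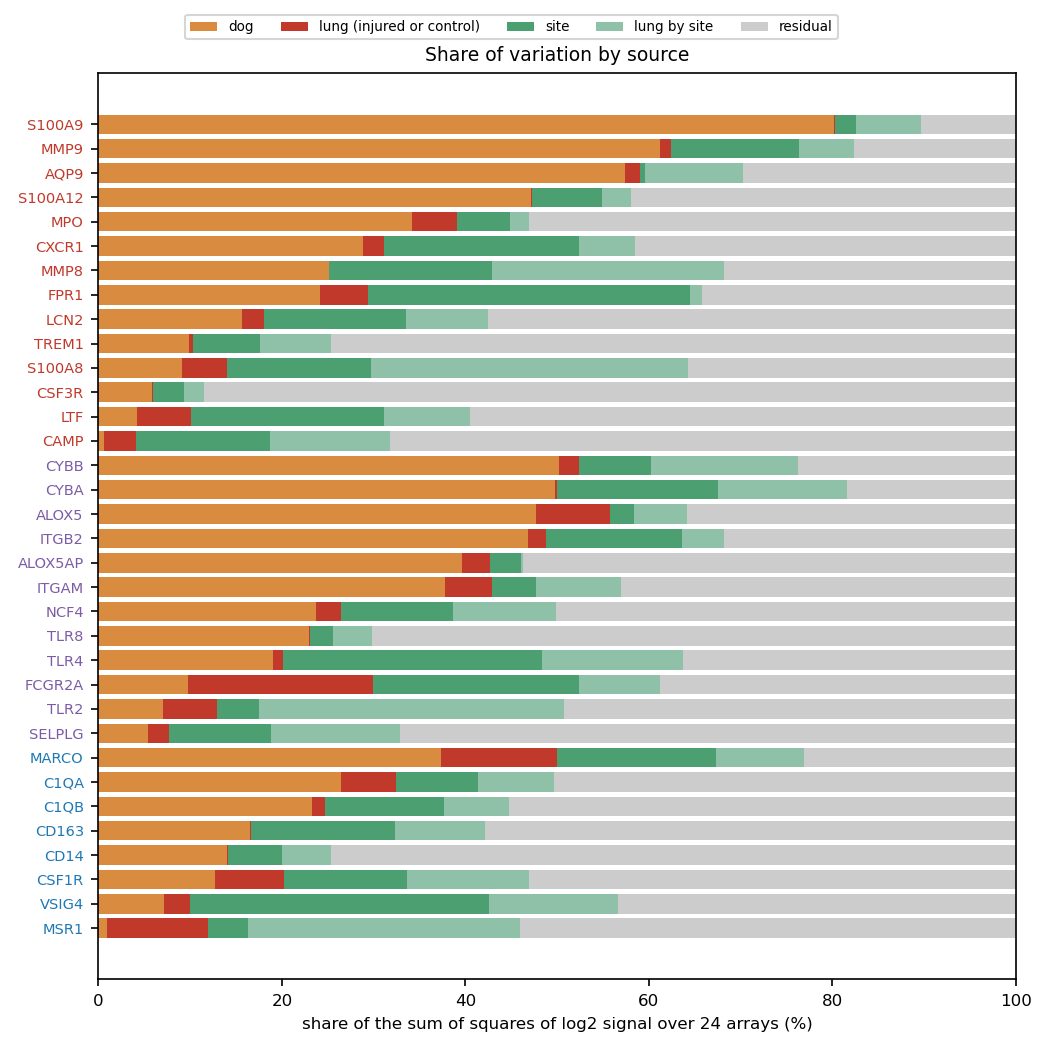
Share of the sum of squares of log2 signal over 24 arrays held by the dog, the lung (injured or control), the site, the lung by site and the residual, for each of the 34 genes. The dog holds 80.2% for S100A9 and 0.62% for CAMP, and the lung holds at most 20.2%, for FCGR2A.

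Genes of 1 class moved together only weakly across the arrays. After removing the dog and group means, the mean correlation over the 91 pairs of neutrophil genes was 0.05, with a range of -0.72 to 0.77. It was 0.06 over the 66 pairs of shared genes and -0.06 over the 28 pairs of macrophage genes, against 0.01 over all pairs of probe sets. The highest pair was TREM1 and AQP9, at 0.77. Probe sets of the same gene, which should measure the same transcript, did little better: over 23 pairs from 9 genes the median correlation was 0.08, and 9 pairs were below 0. Only the NCF4 pair exceeded 0.5, at 0.78. Over the 9573 such pairs of the whole array the median was 0.07, and 10.3% exceeded 0.5, against 4.35% among the members. These correlations are over the same 24 arrays and are given as descriptions.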

How the data were processed

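RNA from 24 pieces of dog lung was hybridised to 24 Affymetrix human expression arrays, per the file headers. Each array file deposited holds, for every probe set, an intensity on the linear scale and a detection call. The trimmed mean (2% at each end) of the deposited intensity was 149.94 or 149.95 on every array, which shows that the authors scaled each array to about 150. Software and settings: not given in the sources used here. Values in the series' own table equalled those of the array files. The dogs carry other names in the array files' headers than in the sample titles, while lung and site agree; the titles were used.

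Of 22283 probe sets, 68 controls and 11 with no call were left out, and those Present on at least 6 arrays were tested, which left 20034. The deposited signals were put on the log2 scale, with the 3 signals of 0 set to 0.1. Gene symbols came from the platform annotation, and probe sets with several symbols were not named. Of the 38 genes, 35 have their symbol in the dog RefSeq table, and the symbols FPR1, ALOX5AP and FCGR2A are not listed there. Of 53 member probe sets, 49 were tested; the second S100A8 probe set, Present on 0 arrays, was left out with ELANE, CXCR2 and LYZ. Because probe sets had to be Present on 6 arrays, the 34 tested genes are not all members.

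The tests used limma 3.58.1 (R 4.3.3), with 1 linear model of all 24 arrays with 8 groups and the dog as a block, eBayes with its trend option, and p-values adjusted by Benjamini-Hochberg over the 20034 probe sets, threshold 0.05, for 11 comparisons. A block for the dog was used since 8 pieces come from each animal. Deviations from group means had a median correlation of 0.236 among arrays of the same dog (0.007 at the lowest), against -0.136 across dogs. The deviations of the 3 dogs sum to 0 in each group, which pushes the value across dogs below 0. In this model every piece is a unit of its own, while whole lungs were lavaged; averaging per dog, tried as an alternative, makes the 3 dogs the units. Precision is limited by the number of arrays.

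Every member could be named; in each comparison those with an unadjusted p under 0.05 were, and otherwise the 2 with the smallest p of each class, and of the lists of other genes up to 4. The members and lists were chosen with earlier results of these data known. Alternatives were the omission of the dog block, quantile normalization, a floor of 16, no detection filter or one of 12 arrays, the lung as a random block, no intensity trend, array weights, RNA quality covariates (from the 3' and 5' probe sets for GAPDH and ACTB), per-dog means, the mean of a gene's probe sets, and leaving out each dog or the 3 outlying arrays. No sequences are shown, and levels were not compared between genes.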

Additional observations from a re-analysis of the deposited data

How the results depend on the processing

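No member probe set was called in any of the 11 comparisons under any of the alternatives, in 150 counts. In several comparisons no probe set of the whole array was called under any alternative either. These were the apex nondependent site and the interaction with position. The others were the dependent against the nondependent part in either lung, and base against apex in the control lung. There the 0 of the members is no result of its own. Without the replicate block for the dog the count of member probe sets called was 0 in each comparison, the same as with the pairing by dog. It was also 0 with any 1 dog left out, but without dog 2 the mean of 4 sites had 0 calls over all probe sets too. At single sites a per-dog mean is the array itself, so that alternative was run only for the other comparisons. Of 724 values of named members under the alternatives, 722 kept their direction. Members were named for a small p in these same data, so their direction was less likely to reverse than that of other members. Over the 4 sites together, MPO and NCF4, which were not named there, both stood at 0.19. Without dog 1 they reversed to -0.02 and -0.12. Of 53 named values, 34 moved by over 1.5 times without 1 dog or the 3 outlying arrays. The 2 values of named members that reversed were both TLR8 at the base minus the apex of the injured lung. It was 0.81 with all arrays and -0.11 without the 3 outlying arrays of dog 3. When a dog was left out it was between -0.06 (without dog 3) and 1.34 (without dog 2). The count of neutrophil genes higher in injured lung over the 4 sites, 8 of 14, lay between 5 and 8, with the lowest without dog 1. The 14 of 14 neutrophil genes higher in the dependent part of the injured lung became 11 to 14, and the 3 of 14 higher at its base became 1 to 7, with 5 after quantile normalization, 1 with array weights and 7 without dog 2. The 8 of 12 shared genes higher at that base became 5 without dog 3, and 5 without its 3 outlying arrays. Counts over all probe sets moved more: the 42 of the mean of 4 sites ranged from 0 (without dog 2) to 91 (lung as a random block), the 81 of the base nondependent site from 0 to 159, and the 7 of base against apex in the injured lung from 0 to 116. With 3 dogs and a median SE of 0.18 over the 4 sites together (0.36 at 1 site), small changes in these genes are not detectable here. An added alternative set, on the other 6 comparisons and on the counts of genes higher, was chosen after seeing the data.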
